A study of Mus musculus with 42 samples.

Results

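The nuclear factor I (NFI) family of transcription factors comprises the genes Nfia, Nfib, Nfic and Nfix, which are 4 of the 12393 genes that a probe set with a single gene symbol represented on Affymetrix mouse expression arrays. Every probe set whose annotation gives one of these symbols alone was taken, 16 in all: 3 for Nfia, 4 for Nfib, 4 for Nfic and 5 for Nfix. The family was chosen from results of these same arrays, on which Nfib and Nfix differed between groups of neurons, so the levels and differences of the family are given as a description and no p-value is offered in its support.

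NFI proteins bind DNA as dimers at a palindrome made of TTGGC and its complement GCCAA, each unit contacted by a subunit, and the genes share a conserved DNA-binding domain. In the developing forebrain they are known for their part in the switch of neural progenitors from making neurons to making glia, and for the formation of the hippocampus and of the axon tracts that join the hemispheres. Nfia and Nfib are best known in astrocyte differentiation, Nfix in the hippocampus and in adult neural stem cells, and Nfic in tooth root formation.

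The arrays came from adult mouse forebrain neurons, with 3 arrays in each of 14 groups and 42 in all. In 12 groups, 27 to 120 fluorescent cells per array were picked by hand from dissociated slices of male mice at least 57 postnatal days old (1 array carries no age), and their RNA was amplified before hybridisation. GIN mice, whose label names Gad1, gave GFP-expressing cells labelled as somatostatin-positive interneurons from hippocampus and cingulate cortex; G42 mice gave GFP-expressing cells labelled as parvalbumin-positive interneurons from cingulate cortex, and GFP-expressing interneurons from the lateral geniculate nucleus (LGN) of the thalamus. G30 mice gave GFP-expressing interneurons from cingulate and somatosensory cortex, and GFP-labelled neurons of unstated class from the amygdala; YFPH mice gave YFP-labelled layer 5 pyramidal neurons from cingulate and somatosensory cortex, pyramidal neurons from hippocampus, and neurons of unstated class from the amygdala. The CT6 group held layer 6 pyramidal neurons of C57BL/6j cingulate cortex that had taken up fluorescent beads injected into the medial dorsal thalamus; most transgenic mice are labelled as mixed with C57BL/6j, and some arrays pool mice of several ages. Ages differed with region in YFPH mice: hippocampus and amygdala arrays came from mice at least 91 days old and the 2 cingulate arrays with an age from mice of 65 and 80 days, so age and region cannot be told apart in those comparisons. Other groups differed too. Ages in days were 57 to 68 in G30 cingulate, 57 to 69 in G30 somatosensory and 60 to 79 in G30 amygdala arrays. They were 74 to 82 in CT6, 60 to 66 in G42 LGN and 65 to 79 in G42 cingulate arrays. GIN arrays came from mice of 63 to 78 days in cingulate cortex and 63 to 74 in hippocampus. The part of age in the differences was not tested. In 6 cases a pair of arrays from different regions shared a line, an age and a scan day, among them 2 pairs of G30 cingulate and somatosensory arrays; whether they came from the same mice is not given in the labels. The remaining 2 groups, called unsorted here and homogenate in the labels, are dissociated cingulate cells of GIN and G42 mice that were not sorted, with neither age nor sex in the labels. As background, the GFP of GIN and G42 mice is driven by the Gad1 promoter, that of G30 mice by the Gad2 promoter and the YFP of YFPH mice by the Thy1 promoter, so a line is a subset of cells and not a whole class. Levels are given as log2 of the deposited intensity plus 16, and a probe set's level is not set against that of another probe set.

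The sorted groups carried the markers of their labels, but some also carried markers of another class. Gad1, which makes the inhibitory transmitter GABA, averaged at least 11.2 in every GIN and G42 group and in the G30 cortical groups, and at most 5.95 in CT6 and YFPH groups. On the 3 G30 amygdala arrays it read 6.37, 9.25 and 8.63, while Neurod6, a transcription factor of excitatory forebrain neurons, read 8.13, 9.54 and 8.87, so that group carried markers of both classes, against a Gad1 mean of 12.11 and a Neurod6 mean of 4.83 in G30 cingulate cells. Pvalb averaged 13.42 ± 0.05 (SD, n = 3) in the G42 cingulate group and 9.30 ± 0.33 in the G42 LGN group, and it averaged 11.95 ± 0.83 in the YFPH somatosensory group, whose label is pyramidal, and 11.72 ± 0.31 in the GIN hippocampus group, against 9.25 ± 0.36 in GIN cingulate cells. Sst averaged 14.12 ± 0.06 in GIN cingulate and 13.54 ± 0.18 in GIN hippocampal cells. It read 11.77, 13.13 and 10.21 in G30 somatosensory and 11.62, 10.69 and 10.61 in G30 cingulate interneurons. Its mean was 9.82 ± 0.46 in G42 cingulate cells and at most 8.88 in CT6 and YFPH groups. Glial and vascular markers were lower in sorted cells: the summed intensity of 11 of 11 astrocyte markers was 2274 to 9981 on sorted arrays and 24970 to 33950 on unsorted ones, and that of 7 of 8 oligodendrocyte markers was 1421 to 2760 against 11870 to 21680. The sum for 7 of 8 microglial markers was 2458 to 3830 against 8026 to 9904, the sum for 8 of 8 endothelial and mural markers was 2925 to 4131 against 6069 to 7656, and no marker was at the floor value of 1 on every array of a group.

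The RefSeq promoter windows of the family are shown because the protein family's own recognition unit can be looked for in them. The table of windows, each 300 bases long from 250 bases before to 50 bases after a transcription start in build GRCm38.p6, held 6 windows of 3 members: 1 for Nfia, 1 for Nfic and 4 for Nfix. TTGGC was searched on both strands, so that GCCAA also counts. The windows of Nfia and Nfic and 1 window of Nfix held no match, 2 windows of Nfix held 1 match each, and 1 window of Nfix held 2. Of all 32851 windows, 46.7% held at least 1 match and 14.4% held 2 or more. Below are the Nfix window with 2 matches (chr8:84772826-84773125, minus strand) and an Nfix window with 1 match after the start site (chr8:84773361-84773660, minus strand), 5′ to 3′, with matches in capitals.
Nfix window with 2 matches: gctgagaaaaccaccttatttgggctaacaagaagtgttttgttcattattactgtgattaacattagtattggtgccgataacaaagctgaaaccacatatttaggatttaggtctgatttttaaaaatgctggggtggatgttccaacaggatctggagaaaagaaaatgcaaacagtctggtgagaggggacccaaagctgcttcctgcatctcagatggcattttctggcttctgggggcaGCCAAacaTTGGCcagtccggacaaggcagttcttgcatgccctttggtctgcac
Nfix window with 1 match: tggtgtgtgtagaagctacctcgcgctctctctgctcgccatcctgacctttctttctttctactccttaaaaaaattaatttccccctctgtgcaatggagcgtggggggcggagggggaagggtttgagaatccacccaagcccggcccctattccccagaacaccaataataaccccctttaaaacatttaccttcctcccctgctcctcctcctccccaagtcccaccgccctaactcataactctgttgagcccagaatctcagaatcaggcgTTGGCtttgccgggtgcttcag
In the first window the matches begin 5 bases before and 4 bases after the start and face away from each other across 3 bases, GCCAA coming first. A match describes the letters of the window and was not tested as a binding site; no binding data were used here.

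Of the 16 member probe sets, 5 varied widely between groups and 11 were nearly flat. The variable ones were Nfib 1427680_a_at and 1448288_at and Nfix 1423493_a_at, 1436363_a_at and 1436364_x_at, whose group means spanned between 3.55 and 5.93 log2 units. Among the other 11 the span lay between 0.19 and 1.04. Over all tested probe sets the median span was 0.72, and 0.124% of them had a span as wide as that of Nfix 1436363_a_at, against 0.314% for Nfib 1427680_a_at, 1.64% for Nfib 1448288_at, 27% for Nfic 1435527_at and 59.4% for Nfia 1421163_a_at.

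**Figure D1:**
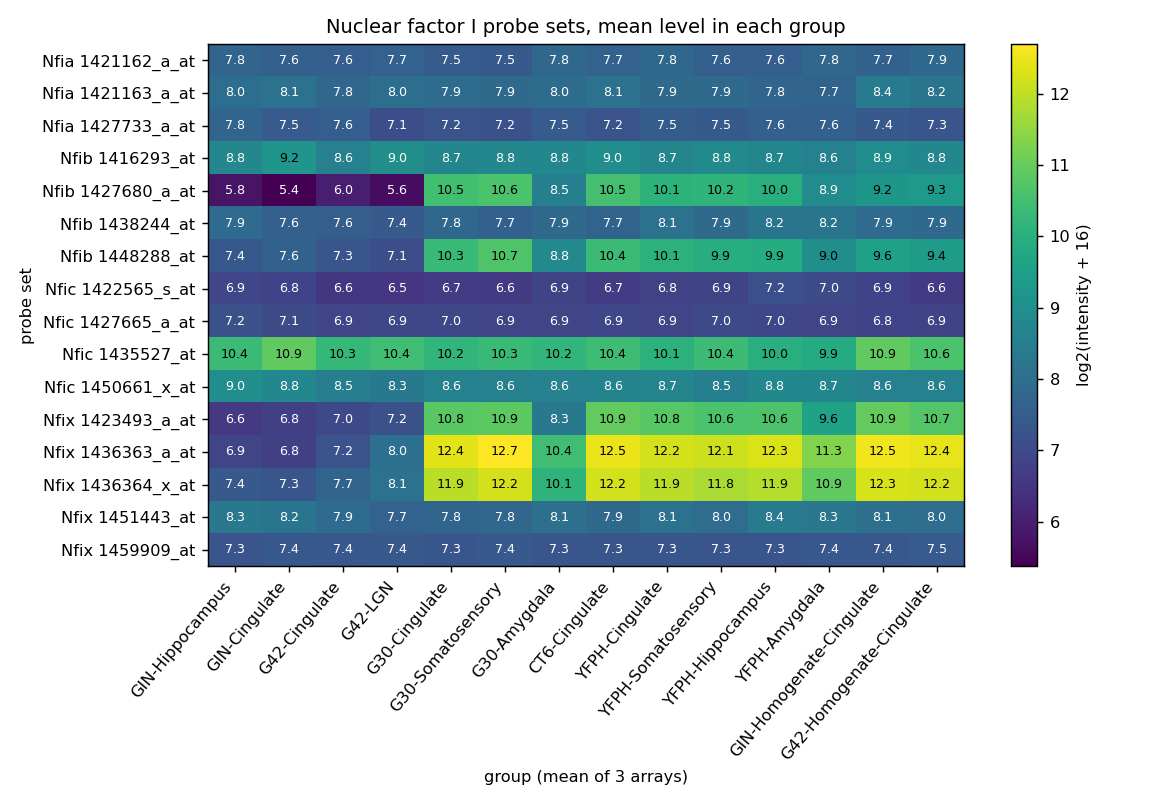
Mean level of each of the 16 NFI probe sets (rows) in each of the 14 groups (columns, mean of 3 arrays), as log2(intensity + 16), with the value printed in each cell. The 5 variable probe sets of Nfib and Nfix are dark in the 4 sorted groups of the GIN and G42 lines and bright in the other groups, while the other 11 rows change by at most 1.04 units.

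Nfix was lowest in the sorted cells of the GIN and G42 lines and highest in G30 cortical interneurons, in every cortical and hippocampal pyramidal group and in unsorted cortex. Its probe set with the highest mean, 1436363_a_at, read 6.77, 7.19 and 6.72 on the GIN hippocampus arrays and 6.32, 6.70 and 7.30 on the GIN cingulate arrays. It read 6.91, 6.52 and 8.28 in G42 cingulate cells and 9.10, 6.72 and 8.33 in G42 LGN cells. These 4 groups overlapped each other, and the G42 groups were the least even, with 1 cingulate array and 2 LGN arrays above every GIN array.

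In the G30 line, Nfix 1436363_a_at read 12.34, 12.48 and 12.39 in cingulate and 12.61, 12.72 and 12.76 in somatosensory interneurons. CT6 pyramidal neurons read 12.50, 12.46 and 12.52, and YFPH pyramidal neurons read 12.35, 12.08 and 12.30 in cingulate, 12.32, 12.09 and 12.02 in somatosensory cortex and 12.15, 12.36 and 12.41 in hippocampus. The unsorted arrays read 12.64, 12.19 and 12.79 for GIN mice and 12.53, 12.40 and 12.35 for G42 mice. G30 interneurons of the cingulate cortex thus sat among the pyramidal groups, their arrays overlapping those of YFPH cingulate neurons and of CT6 neurons. The amygdala lay between: YFPH cells read 11.35, 11.26 and 11.29 and G30 cells 9.74, 10.75 and 10.84, both below every cortical pyramidal array and above every GIN and G42 sorted array.

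On the linear scale the median intensity of Nfix 1436363_a_at was 98.6 over the 12 sorted GIN and G42 arrays and 5300 over the 18 sorted arrays of G30, CT6 and YFPH outside the amygdala. The 2 sets of arrays did not overlap: the highest array of the first stood 2.92 log2 units below the lowest of the second. The same held for the other 4 variable probe sets, with gaps of 1.42 (Nfib 1448288_at), 2.64 (Nfix 1423493_a_at), 2.80 (Nfix 1436364_x_at) and 3.37 (Nfib 1427680_a_at). That is 5 of the 12 member probe sets tested; over all probe sets tested, 0.366% separated these sets of arrays in either direction, and because such values chose the family nothing is read from the count.

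Nfix 1423493_a_at and 1436364_x_at followed the same order of groups in broad outline. The former ranged from 6.46 to 7.68 on sorted GIN and G42 arrays, from 8.18 to 9.85 on amygdala arrays, from 10.32 to 11.06 on the other sorted arrays and from 10.50 to 11.18 on unsorted ones. The latter ranged from 7.14 to 8.84, from 9.50 to 10.95, from 11.64 to 12.28 and from 12.00 to 12.44 over the same sets. Across the 14 group means the Pearson correlation among the 3 variable Nfix probe sets was 0.99 to 1.00, a description over arrays they share; 1436363_a_at and 1436364_x_at were also designed to the same sequence accession.

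Nfib separated the same groups. Its probe set 1427680_a_at read 5.44, 5.97 and 5.84 in GIN hippocampus, 5.15, 5.52 and 5.46 in GIN cingulate, 6.34, 6.29 and 5.38 in G42 cingulate and 5.69, 5.50 and 5.66 in G42 LGN cells. In linear terms these 12 arrays ran from 19.4 to 64.9. The files used here carry no detection calls, so whether such dim values lie above background is not known.

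High Nfib levels were found in the same sorted groups as high Nfix levels. Nfib 1427680_a_at read 10.49, 10.59 and 10.41 in G30 cingulate and 10.56, 10.27 and 11.08 in G30 somatosensory interneurons. It read 10.75, 10.76 and 10.14 in CT6 neurons, and 10.28, 9.99 and 10.03 in YFPH cingulate, 10.40, 10.07 and 10.06 in YFPH somatosensory and 10.05, 10.17 and 9.71 in YFPH hippocampal neurons. The G30 cingulate arrays overlapped the CT6 arrays, and the lowest of them, at 10.41, was just above the highest YFPH array, at 10.40.

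Unsorted cortex was where Nfib and Nfix ranked apart. Nfib 1427680_a_at read 9.55, 8.83 and 9.34 in unsorted GIN cortex and 9.16, 9.50 and 9.38 in unsorted G42 cortex, below every sorted array of G30 cortex, CT6 and YFPH outside the amygdala, whereas the unsorted Nfix values overlapped those of the same groups. Amygdala cells read 8.83, 9.14 and 8.72 (YFPH) and 8.23, 8.76 and 8.59 (G30). Nfib 1448288_at ranged from 6.98 to 7.84 on sorted GIN and G42 arrays, from 8.22 to 9.34 in the amygdala, from 9.26 to 11.06 on the other sorted arrays and from 9.26 to 9.75 on unsorted ones, so here the last 2 sets overlapped. In bulk samples such as the homogenates, fewer cells of a type and less RNA per cell cannot be told apart.

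**Figure D2:**
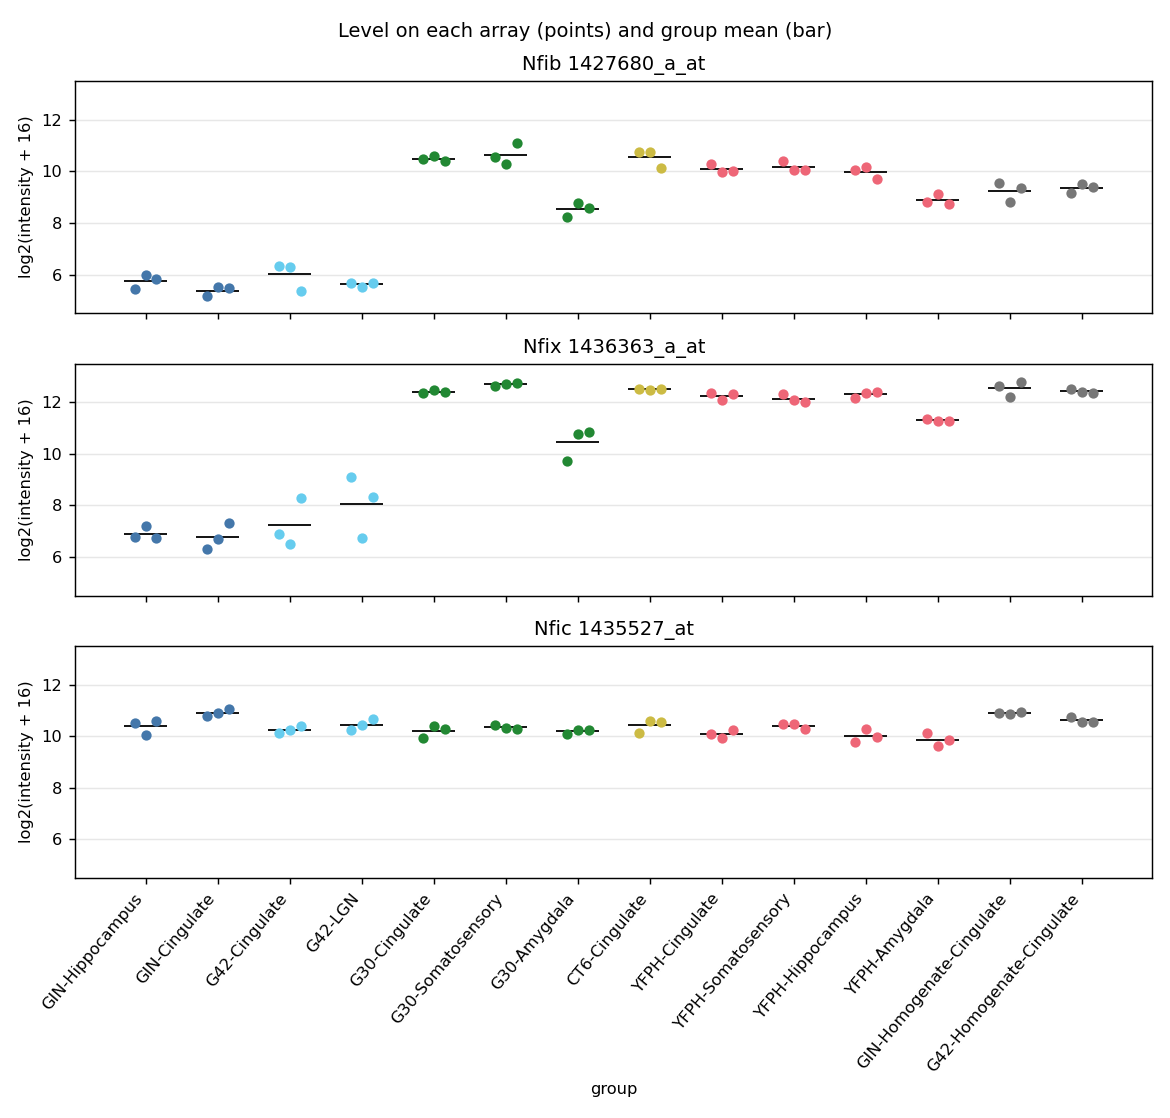
Level on each array (points) and group mean (bar) as log2(intensity + 16), on 1 vertical scale, for Nfib 1427680_a_at, Nfix 1436363_a_at and Nfic 1435527_at; colours mark the mouse line, and grey marks unsorted tissue. Nfib and Nfix drop in the 4 sorted groups of the GIN and G42 lines and take middle values in the amygdala, while Nfic stays between 9.64 and 11.04.

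In the order of the 14 groups, most neighbours did not differ beyond their arrays' spread. For Nfix 1436363_a_at, 3 of 13 neighbouring pairs had arrays that did not overlap: YFPH somatosensory above YFPH amygdala (by 0.84 between means), YFPH amygdala above G30 amygdala (0.86) and G30 amygdala above G42 LGN (2.39). For Nfib 1427680_a_at the 3 were G30 cingulate above YFPH somatosensory (0.32), YFPH hippocampus above unsorted G42 cortex (0.63) and G30 amygdala above G42 cingulate (2.52). The step below the G30 amygdala was the widest for 4 of the 5 variable probe sets. For the fifth, Nfix 1423493_a_at, the widest step lay between YFPH amygdala and G30 amygdala (1.27), with the step below it at 1.14.

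**Figure D3:**
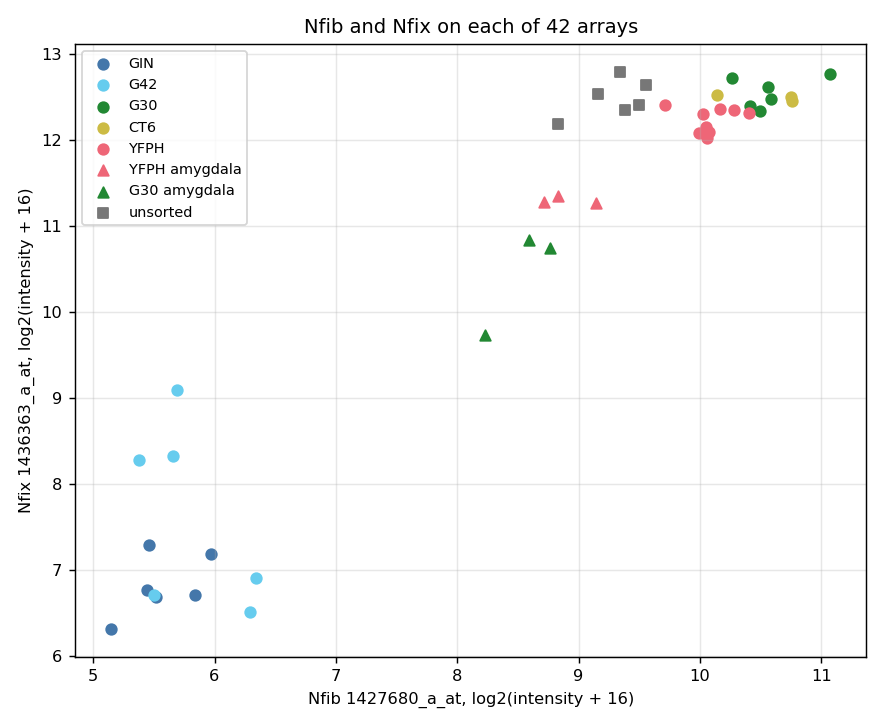
Nfib 1427680_a_at (horizontal) against Nfix 1436363_a_at (vertical) on each of the 42 arrays, both as log2(intensity + 16), with colour for the mouse line, triangles for amygdala and squares for unsorted tissue. The sorted GIN and G42 arrays lie at Nfib levels up to 6.34, the amygdala arrays between 8.23 and 9.14, and the other sorted arrays from 9.71 upward.

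The other members and probe sets changed little. Nfia 1421163_a_at had group means from 7.74 (YFPH amygdala) to 8.37 (unsorted GIN cortex), and the other Nfia probe sets had means from 7.45 to 7.87 (1421162_a_at) and from 7.13 to 7.77 (1427733_a_at). Nfic 1435527_at was highest in GIN cingulate cells, at 10.78, 10.91 and 11.04, and in unsorted GIN cortex, at 10.91, 10.87 and 10.93, and lowest in YFPH amygdala cells, at 10.12, 9.64 and 9.85. Its other probe sets spanned 0.34 to 0.62 units of group means. For none of the 3 Nfia probe sets did any pair of neighbouring groups stand apart without overlap. All 3 were dim: median intensities over the 36 sorted arrays were 185 (1421162_a_at), 226 (1421163_a_at) and 159 (1427733_a_at). Array medians over all probe sets were 285.83 to 330.39. The flat Nfib 1438244_at (206) and Nfix 1459909_at (149) were dim as well. Without detection calls, whether such signals lie above background is not known, so their flat levels do not show even expression.

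Probe sets of the same gene disagreed for Nfib and Nfix. Nfib 1416293_at, designed to the same sequence accession as the variable 1448288_at, had group means from 8.55 to 9.19, highest in GIN cingulate cells, where 1448288_at was low, and the correlation of the 2 over the 14 group means was -0.12. Nfib 1438244_at spanned 0.81, Nfix 1451443_at 0.68 and Nfix 1459909_at 0.19. The correlation of the latter 2 with Nfix 1436363_a_at was -0.15 and 0.05. Which transcripts each probe set reads could not be looked up, since no probe sequences were used here.

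Differences between groups were estimated with limma across 15285 probe sets, and a probe set was called when its Benjamini-Hochberg adjusted p was below 0.05. Of the 16 member probe sets, 12 passed the filter on low mean levels; Nfia 1427733_a_at, Nfic 1422565_s_at and 1427665_a_at and Nfix 1459909_at did not. A filter on the mean over all arrays can be passed through the groups where a gene is high, so counts over the 12 are not counts over the family.

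Between the 3 classes of cingulate interneuron, G30 cells had more Nfib and Nfix signal than GIN and G42 cells. The difference, G30 minus the mean of GIN and G42, was 5.40 ± 0.31 (SE) log2 units for Nfix 1436363_a_at (12.40 in G30, 6.77 in GIN and 7.24 in G42 cells), 4.42 ± 0.21 for Nfix 1436364_x_at, 3.95 ± 0.18 for Nfix 1423493_a_at, 4.81 ± 0.19 for Nfib 1427680_a_at (means 10.50 and 5.69) and 2.87 ± 0.22 for Nfib 1448288_at. Every G30 array exceeded every GIN and G42 array for these 5. Nfic 1435527_at was lower in G30 cells by a small amount, with a difference of -0.39 ± 0.13. That call was lost with the compared arrays only. It was also lost without GIN cingulate array 2 or 3, G42 cingulate array 2 or 3, or G30 cingulate array 1 or 3. The Nfic difference in these settings ran from -0.43 to -0.26. In all 6 of 12 were called, 5 higher and 1 lower, against 15.3% of all probe sets tested; the rule used this contrast, and nothing is read from the count.

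GIN and G42 cells differed from each other far less in the variable probe sets. GIN minus G42 was -0.63 ± 0.22 for Nfib 1427680_a_at and -0.47 ± 0.36 for Nfix 1436363_a_at, whose 95% interval ran from -1.20 to 0.27. Nfic 1435527_at (0.66 ± 0.15), Nfib 1416293_at (0.63 ± 0.13) and Nfia 1421163_a_at (0.35 ± 0.13) were higher in GIN cells. These were 4 of 12 called, with Nfib 1427680_a_at, against 28.1% of all probe sets. Quantile normalisation or median centring ended the Nfia call, at 0.23 and 0.24, and a pseudocount of 64 ended the Nfib 1427680_a_at call, at -0.34. The Nfia call was also lost with scan day as a random block, with the compared arrays only, and without array 2 or 3 of either group. That of Nfib 1427680_a_at was also lost with the compared arrays only and without GIN array 1 or G42 array 1 or 2. The log2 ratio of the 3′ to the 5′ Gapdh probe sets, a measure of how far RNA is shortened, was 3.21 ± 0.37 (SD, n = 3) in GIN and 1.98 ± 0.20 in G42 cingulate cells, and with it as a covariate none of the 12 was called, although 2024 of all probe sets were.

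Pyramidal neurons of the cingulate cortex (CT6 and YFPH) were above the mean of the 3 interneuron groups in the same 5 probe sets, with 5 of 12 called against 28.4% of all. The difference was 3.56 ± 0.23 for Nfix 1436363_a_at (means 12.37 and 8.80) and 3.03 ± 0.14 for Nfib 1427680_a_at (means 10.32 and 7.29). The interneuron mean averages groups that differ: for Nfix it combines 6.77 in GIN and 7.24 in G42 with 12.40 in G30 cells, the last within 0.10 of the 12.49 of CT6 neurons. The comparison of pyramidal neurons with interneurons and that of G30 with the other interneurons share the GIN, G42 and G30 arrays. Between layer 6 and layer 5 neurons 0 of 12 were called against 11.5% of all probe sets, and CT6 minus YFPH was 0.25 ± 0.36 for Nfix 1436363_a_at (95% interval -0.49 to 0.99) and 0.45 ± 0.22 for Nfib 1427680_a_at (0.003 to 0.89).

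**Figure D4:**
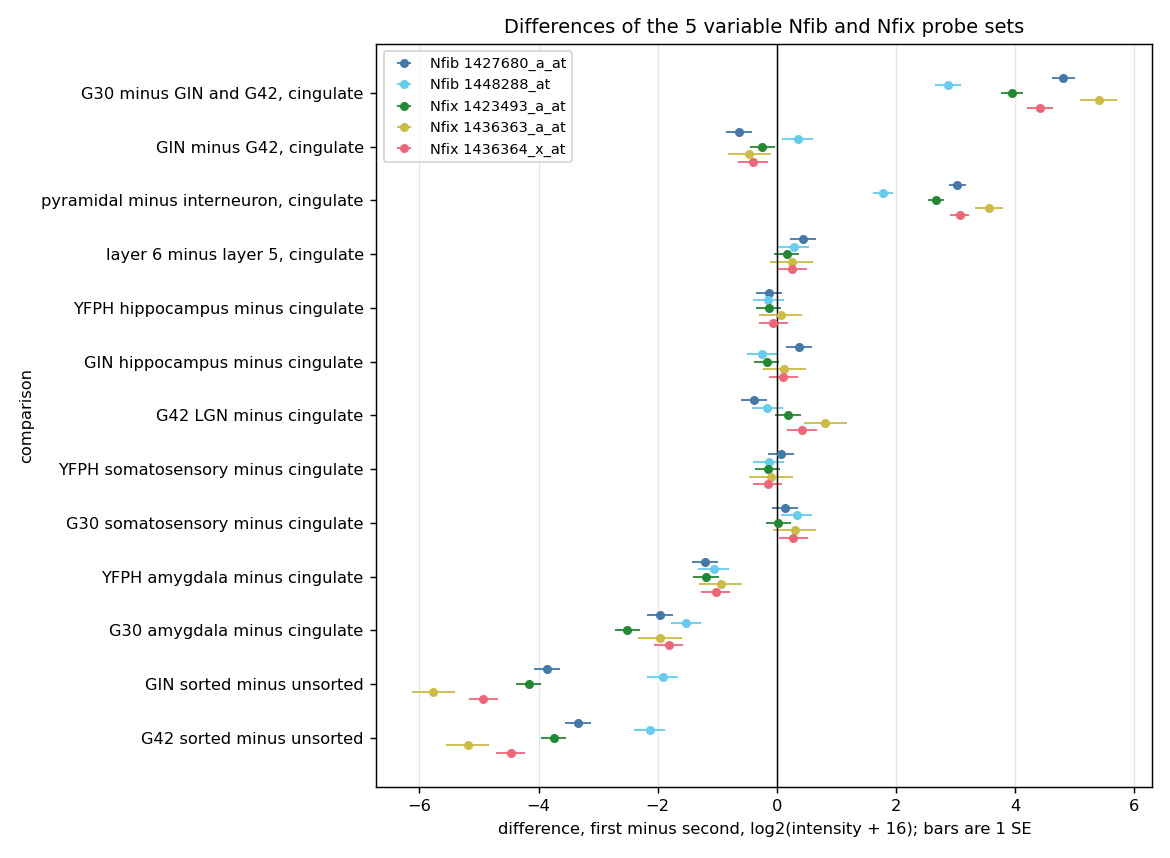
Difference between the first and second named group (points; bars are 1 SE) in log2(intensity + 16) for the 5 variable Nfib and Nfix probe sets in 13 comparisons. The points lie far to the right for G30 against GIN and G42 cells, far to the left for sorted GIN and G42 cells against unsorted cortex, between -2.51 and -0.94 for the amygdala, and between -0.63 and 0.81 for GIN against G42 cells, layer, cortical area, hippocampus and LGN.

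Among regions of the cortex and hippocampus, no member probe set was called within the YFPH line or between the G30 cortical areas. YFPH hippocampal minus cingulate neurons gave 0.06 ± 0.36 for Nfix 1436363_a_at (95% interval -0.67 to 0.80) and -0.13 ± 0.22 for Nfib 1427680_a_at, with 0 of 12 called against 9.07% of all. YFPH somatosensory minus cingulate gave -0.10 ± 0.36 and 0.08 ± 0.22, with 0 of 12 called against 1.26% of all, and the pair of arrays scanned on the same day gave -0.03 and 0.12. G30 somatosensory minus cingulate gave 0.30 ± 0.36 and 0.14 ± 0.22, with 0 of 12 called against 0.144% of all, and the 2 pairs of arrays of the same age and scan day gave 0.23 and -0.09 on average. The difference of these somatosensory contrasts between YFPH and G30 cells was called for 0 of 12 against 0.425% of all.

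Within the GIN and G42 lines, the member probe sets called between regions were among the flatter ones, and the variable Nfib and Nfix probe sets were low in each region. In GIN cells, hippocampus minus cingulate gave 0.12 ± 0.36 for Nfix 1436363_a_at and 0.37 ± 0.22 for Nfib 1427680_a_at; Nfic 1435527_at (-0.53 ± 0.15) and Nfib 1416293_at (-0.43 ± 0.13) were lower in hippocampus. These were 2 of 12 called against 16.4% of all. Both calls were lost without GIN hippocampus array 2, without GIN cingulate array 3 and with the Gapdh covariate. The calls over all probe sets were then 1622, 1728 and 1524, in place of 2504. Without GIN hippocampus array 1 there were 5 of 12, beside 3146 of all. In G42 cells, LGN minus cingulate gave 0.81 ± 0.36 for Nfix 1436363_a_at, not called, and 0.43 ± 0.13 for Nfib 1416293_at, the 1 of 12 called against 23.9% of all, a call lost without G42 cingulate array 2 or LGN array 3. The Nfix value rested on single arrays: it was 1.33 without G42 cingulate array 3 and 1.48 without LGN array 2, and was called in both cases. Over all 19 alternatives the Nfix value ran from 0.29 to 1.48, and these 2 were the only ones that called it. The difference of the hippocampal contrast between YFPH and GIN cells was called for 0 of 12 against 19.2% of all.

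Amygdala neurons had less Nfib and Nfix signal than cingulate neurons of the same line. YFPH amygdala minus cingulate was -1.20 ± 0.22 for Nfib 1427680_a_at, -1.06 ± 0.26 for Nfib 1448288_at, -1.19 ± 0.21 for Nfix 1423493_a_at and -1.02 ± 0.25 for Nfix 1436364_x_at, which were 4 of 12 called against 5.67% of all. Nfix 1436363_a_at differed by -0.94 ± 0.36 and was not called, although its YFPH amygdala arrays were all below the cingulate ones; a limma fit of these 6 arrays alone, with the same difference, called it. The YFPH amygdala arrays were all scanned in the first of 3 scan years, on days without cingulate arrays. Nfib 1448288_at was not called without amygdala array 2, at -0.85. The labels mark 3 YFPH arrays for unusual amplification or a new sorting method. Without those 3 arrays 2 of 12 were called, beside 485 of all probe sets in place of 866. The values of these 5 probe sets then lay between -1.36 and -0.90.

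The same 5 probe sets were lower in the amygdala of G30 mice. G30 amygdala minus cingulate was -2.51 ± 0.21 for Nfix 1423493_a_at, -1.96 ± 0.36 for Nfix 1436363_a_at, -1.82 ± 0.25 for Nfix 1436364_x_at, -1.97 ± 0.22 for Nfib 1427680_a_at and -1.53 ± 0.26 for Nfib 1448288_at, and Nfia 1421162_a_at was higher by 0.33 ± 0.12, which made 6 of 12 called against 23.5% of all. The Nfia call was lost without any 1 of the 6 arrays. In this comparison 3 of 3 interneuron markers were lower in the amygdala and 4 of 4 tested pyramidal markers higher (median difference -3.61 and 2.52, against 0.04 over all probe sets), and the part of this in the NFI differences was not tested. G30 amygdala arrays 2 and 3 were scanned in a year of their own; with scan year as a term the 5 differences were between -2.67 and -2.13.

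The difference between the lines was called for 1 of 12 probe sets against 10.3% of all: for Nfix 1423493_a_at the YFPH contrast exceeded the G30 contrast by 1.32 ± 0.30. For the other 4 variable probe sets that excess was 0.47 to 1.02 with standard errors of 0.31 to 0.51. With scan year as a term 2 of 12 were called, beside 939 of all probe sets in place of 1578. With these arrays alone 3 of 12 were called, beside 1629 of all.

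Sorted GIN and G42 cells had far less Nfib and Nfix signal than unsorted cingulate cortex of the same lines. GIN sorted minus unsorted was -5.77 ± 0.36 for Nfix 1436363_a_at (means 6.77 and 12.54), -4.93 ± 0.25 for Nfix 1436364_x_at, -4.17 ± 0.21 for Nfix 1423493_a_at, -3.87 ± 0.22 for Nfib 1427680_a_at and -1.92 ± 0.26 for Nfib 1448288_at, the 5 of 12 called against 28% of all. On the 3 scan days that held both a sorted and an unsorted GIN array, Nfix 1436363_a_at differed by -5.87, -6.10 and -5.34. G42 sorted minus unsorted was -5.19 ± 0.36 and -3.34 ± 0.22 for Nfix 1436363_a_at and Nfib 1427680_a_at. With Nfia 1421163_a_at (-0.40 ± 0.13) and the other 3 variable probe sets, 6 of 12 were called against 31% of all. Quantile normalisation ended the Nfia call, at -0.32. Median centring ended it too, as did leaving out array 3 of the sorted or of the unsorted G42 group. The glial and vascular marker sums given above also fell from unsorted to sorted arrays, and the part of those cells in the unsorted NFI signal was not tested.

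Genes near the family in function were counted beside it, from lists set up with earlier results of these arrays known. Of 9 transcription factors and signalling genes of gliogenesis (Sox9, Sox10, Olig1, Olig2, Zbtb20, Hes1, Hes5, Notch1 and Stat3), 6 were tested; 0 were called between G30 and the other interneurons, where 7.44% of all probe sets were higher and 7.89% lower, and their median difference was 0.02 against -0.03 for all. Between pyramidal neurons and interneurons 1 of the 6 was called, where 14% of all probe sets were higher and 14.4% lower. This was Zbtb20, a zinc finger repressor, with a difference of -0.84 ± 0.13. Its level in the cingulate cortex was 9.65 ± 0.34 (SD, n = 3) in GIN cells and 9.26 ± 0.28 in G30 cells, and 8.31 ± 0.08 in G42 cells, beside 8.28 ± 0.25 in CT6 and 8.19 ± 0.15 in YFPH cells.

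Genes reported as NFI targets in neural cells moved in both directions or were not called. Of 12 such genes 9 were tested, and 2 were higher and 1 lower in G30 than in GIN and G42 cells, with a median difference of 0.02. Mmd2, a membrane protein gene reported downstream of Nfia in glial precursors, was higher in G30 cells by 1.33 ± 0.21 and in pyramidal neurons by 2.26 ± 0.16. Cdh2, which encodes N-cadherin, was higher in G30 cells by 0.94 ± 0.20, and Gfap, the astrocyte intermediate filament, was lower, with a difference of -0.22 ± 0.08. Gfap does not stand for the astrocyte list: of 8 tested astrocyte genes, 2 were higher and 1 lower in G30 cells. Of all probe sets, 7.44% were higher and 7.89% lower there. The summed intensity of the astrocyte markers was 8366 to 9863 in G30, 3155 to 3579 in GIN and 6479 to 8080 in G42 cingulate cells. In pyramidal neurons against interneurons the count was 2 higher and 0 lower, with S100b (1.22 ± 0.13) beside Mmd2, where 14% of all probe sets were higher and 14.4% lower. Against unsorted cortex, 3 of 9 were lower and 0 higher in sorted GIN cells, where 13.3% of all probe sets were lower and 14.7% higher, and 4 of 9 lower and 0 higher in sorted G42 cells, where the shares were 16% and 14.9%. Of the listed genes, 4 of the 12 are also on the astrocyte list.

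G30 cells of the cingulate cortex also differed from GIN and G42 cells in genes of interneuron lineage. Of 7 genes of interneurons from the caudal ganglionic eminence, 6 were tested and 4 were higher in G30 cells (median 1.20 against -0.03 for all, of which 7.44% were higher and 7.89% lower): Vip by 5.05 ± 0.19, the serotonin receptor gene Htr3a by 3.09 ± 0.12, the cannabinoid receptor gene Cnr1 by 1.79 ± 0.15 and Nr2f2 by 0.61 ± 0.11. The other tested genes of that list, Adarb2 (-0.06 ± 0.10) and Prox1 (-0.07 ± 0.11), were not called. Of 6 genes of the medial eminence lineage, 5 were tested and all 5 were lower than the mean of GIN and G42 cells (median -2.34). Among them were Sox6 (-2.88 ± 0.16), Lhx6 (-2.75 ± 0.10), Pvalb (-2.34 ± 0.20) and Sst (-0.99 ± 0.31). For Sst and Pvalb that mean joins unlike groups. Sst averaged 10.98 in G30 cells, above the 9.82 of G42 cells and below the 14.12 of GIN cells. Pvalb read 8.94, 8.97 and 9.08 in G30 cells, near the GIN mean of 9.25 and far below the G42 mean of 13.42. In G42 LGN cells, where Nfix and Nfib were also low, Lhx6 averaged 8.12 ± 0.16 (SD, n = 3), near the 8.04 ± 0.15 of G30 amygdala cells, against 11.02 ± 0.14 in G42 cingulate cells.

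Among layer genes, all 3 tested layer 5 genes were higher in pyramidal neurons than in interneurons (median 3.67), and so were 2 of 3 tested layer 6 genes (median 1.40), where 14% of all probe sets were higher and 14.4% lower and their median was -0.02. Crym, which encodes a thyroid hormone binding protein, read 11.63, 11.45 and 11.87 in G30 amygdala cells, where Nfix took middle values, and averaged 6.56 ± 0.37 in G42 cingulate cells. It averaged 6.44 ± 0.09 in G30 cingulate and 6.62 ± 0.08 in G30 somatosensory cells, where Nfix was high. Crym therefore did not follow Nfix across these groups.

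The genes of most similar pattern were sought over the 14 group means among 10169 genes, as a description over arrays that the genes share. Nfib 1448288_at and Nfix 1436363_a_at ranked first for each other, with a Pearson correlation of 0.95. Next for Nfib came Cadps2, a priming factor for dense-core vesicles (0.92), and Id2, an inhibitor of helix-loop-helix factors (0.90), and next for Nfix came Gpd1, a glycerol phosphate dehydrogenase (0.93), and Crim1, a transmembrane protein that binds bone morphogenetic proteins (0.93). Both Cadps2 and Gpd1 showed the step between groups: Cadps2 averaged 7.23 over the sorted GIN and G42 groups, 11.77 over the other sorted groups outside the amygdala and 9.92 in unsorted cortex, and Gpd1 8.17, 10.79 and 11.19. For the flat members the closest patterns were shallow. Nfia was nearest to Hacl1 (0.94), Scfd1 (0.92) and Vcam1 (0.91), and Nfic to Aspa (0.95), Clcn7 (0.94) and Gdf3 (0.93), genes whose own group means spanned 0.37 to 1.10 units. Nfia and Nfic reference probe sets correlated with each other at 0.88, and with Nfib and Nfix at -0.22 to 0.05.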

How the data were processed

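The deposited values were Affymetrix MOE430A probe set intensities on a linear scale, with array medians between 285.83 and 330.39 after scaling by the authors; the summarisation and scaling methods are not given in the sources used here. Scan day, scan year and chip lot came from the array records. Other text fields of those deposited array records hold no measurement. The 42 arrays fall into 14 groups by their titles, with replicates from different animals or pools per the series' design; no pair of arrays was identical.

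Of 22690 probe sets, 20380 had a single gene symbol in the platform annotation, and the 15285 at or above the 25th percentile of mean level (intensity 163) were tested. Log2 of intensity plus 16 was fitted with limma 3.58.1 in R 4.3.3 as group means over all 42 arrays (eBayes with trend, Benjamini-Hochberg over all tested, threshold 0.05); the pseudocount makes folds of dim probe sets too small. Differences are given ± SE and levels ± SD. Each group has 3 arrays, and the residual variance of a probe set is pooled over all groups (28 residual degrees of freedom). The SEs and intervals of a comparison therefore also carry the spread of groups outside it. For Nfix 1436363_a_at the median SD of a group was 0.15 and the largest 1.21, in G42 LGN cells. Its SE was 0.36 also for YFPH hippocampal minus cingulate neurons, a comparison without G42 arrays. The members and lists were chosen with earlier results of these data known. The genes named are the members, up to 3 of each list with the widest range of group means, and the 3 most similar in pattern to each member's probe set of highest mean. Gfap, Nr2f2, Lhx6, Adarb2 and Prox1 were named after their values were seen. A gene with several probe sets is represented by that of highest mean. On data simulated for G30 against GIN and G42 cells over 15285 probe sets, the fit called 98 of 100 changes of 1 log2 unit, 100 of 100 changes of 2 and 19 of 15085 unchanged probe sets. The simulated noise was independent between arrays and had the same spread in every group, without effects of scan day, line or RNA quality. These rates therefore check the fit and are not error rates of the real arrays. Alternatives were pseudocounts of 1 and 64, quantile normalisation, median centring, other filters, all probe sets, replicate number, scan day or scan year in the model, the compared arrays alone, and each array left out; leaving out the 3 arrays with notes, the Gapdh ratio as a covariate and a random block for arrays of the same line and age were added after seeing the data. Tables and figures were made with Python 3.11.15, pandas 2.3.3 and matplotlib 3.10.9.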

Additional observations from a re-analysis of the deposited data

Results flagged for a closer look

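The YFPH and G30 amygdala contrasts differed for Nfix 1423493_a_at by limma's test of the difference itself, a description here because the family was chosen on these arrays: YFPH minus G30 was 1.323 ± 0.30 log2 units, with YFPH amygdala cells at -1.19 and G30 amygdala cells at -2.51 against cingulate cells of their line, and every amygdala array of both lines below those cingulate arrays. The value was 1.43 with scan year as a term, 1.30 without the 3 arrays with notes and 1.25 with the Gapdh covariate. The G30 amygdala arrays carried both interneuron and pyramidal markers, and the part of this in the difference was not tested.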

How the results depend on the processing

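The 25 differences of the 5 variable Nfib and Nfix probe sets in G30 against GIN and G42 cells, pyramidal neurons against interneurons, G30 amygdala against cingulate, and sorted against unsorted cells in both lines stayed called in the same direction in 540 of 540 alternative values. These 5 comparisons were taken because each had called all 5 probe sets, which leaves out YFPH amygdala against cingulate. The alternatives reuse the arrays that chose the family, so nothing is read from the count. No called difference of a tested member changed sign. Of 4040 single values under alternatives, 3952 kept their side of the threshold, 55 lost a call and 33 gained one, and the cause was not tested; 158 had the other sign, by at most 0.22 log2 units from 0, and none of these was called either way. Of 342 counts of member probe sets called, 313 stayed within 1.5 times of the reported count. The others were as follows. GIN minus G42 (4 called) gave 2 with the compared arrays only, 0 with the Gapdh covariate and 2 to 3 when an array was left out. Layer 6 minus layer 5 (0) gave 1 with quantile normalisation, 1 with median centring and 0 to 1 with an array left out. GIN hippocampus minus cingulate (2) gave 0 with the compared arrays only, 0 with the Gapdh covariate and 0 to 5 with an array left out. G42 LGN minus cingulate (1) gave 2 with no filter, 0 with the Gapdh covariate and 0 to 4 with an array left out. YFPH amygdala minus cingulate (4) gave 2 without the 3 arrays with notes. The hippocampus difference between YFPH and GIN (0) gave 1 with scan year, 2 without the 3 arrays with notes and 0 to 1 with an array left out, and the amygdala difference between YFPH and G30 (1) gave 2 with scan year and 3 with the compared arrays only. Same-numbered replicates did not deviate together in every pair of any comparison, and with the replicate block the counts were as reported except in G42 sorted minus unsorted cells, 7 in place of 6. With line and age as a random block they were as reported in all 16 comparisons.

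Over all probe sets, counts of calls moved by more than 1.5 times as follows. Scan year as a term gave 666 in place of 1758 for layer 6 minus layer 5, 1702 in place of 3597 for G30 amygdala and 939 in place of 1578 for the amygdala difference. The compared arrays only gave 1147 in place of 1758 for the layers, 726 in place of 1386 for YFPH hippocampus, 1196 in place of 2504 for GIN hippocampus, 66 in place of 192 for YFPH somatosensory, 1 in place of 22 for G30 somatosensory and 41 in place of 65 for the somatosensory difference. The Gapdh covariate gave 2024 in place of 4301 for GIN minus G42, 929 for the layers, 1524 for GIN hippocampus, 2221 in place of 3651 for the LGN, 2813 in place of 4283 for GIN sorted minus unsorted and 1847 in place of 2928 for the hippocampus difference. The line and age block gave 81 for G30 somatosensory. Without the 3 arrays with notes YFPH somatosensory gave 125 and YFPH amygdala 485 in place of 866. With an array left out, G30 minus GIN and G42 gave 1309 without G30 cingulate array 2 and 1468 without array 3, in place of 2343; the layers gave 1023 and YFPH hippocampus 831 without YFPH cingulate array 1, and the layers 1097 without array 2; GIN hippocampus gave 1622 without hippocampus array 2; YFPH somatosensory ranged from 94 to 298 and G30 somatosensory from 12 to 38. The share of calls that were higher in GIN than in G42 cells was 60.7%, against 49% with quantile normalisation and 38.7% with median centring. Median centring moved that share from 95.5% to 85.2% for G30 somatosensory and from 48.3% to 63.6% for G42 sorted minus unsorted. The number of arrays, and dim signals without detection calls, limit the low end of Nfib and what the flat, dim probe sets can show.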
